A study of Mus musculus with 2 samples.

Results

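The Fc gamma receptors of the mouse and the signalling chain they share were followed through the leukocytes of an experimental bile duct cancer. The 5 genes were Fcgr1, Fcgr3 and Fcgr4, which encode the activating receptors for IgG, Fcgr2b, which encodes the inhibitory receptor, and Fcer1g, which encodes the common gamma chain. They were chosen by symbol and stand among 31253 genes in the count tables. CD45+ cells were sorted from intrahepatic cholangiocarcinoma of C57BL/6 mice, raised by hydrodynamic injection of transposon vectors for Myr-AKT and YAPS127A, and sequenced on the BD Rhapsody microwell platform. From day 7 the NAV group received NAV2729, an inhibitor of ARF GTPase activation, at 30 mg/kg every other day for 7 days, and the MOCK group, with the same tumours, went without it. Each group is 1 pooled library, of 6 tumours per group by the design text and of 3 paired tumours by the protocol, so the size of the pools is uncertain. No difference between NAV and MOCK was therefore tested, and the 95% intervals given in brackets cover counting error only.

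Fc gamma receptors bind the constant part of IgG and so connect antibodies with phagocytes. The activating receptors Fcgr1, Fcgr3 and Fcgr4 carry no signalling motif of their own and pair with the gamma chain, whose ITAM recruits the kinase Syk to start phagocytosis, oxidative burst and cytokine release. Fcgr2b carries an inhibitory ITIM that recruits the phosphatase SHIP1, encoded by Inpp5d, and is also the IgG receptor of B cells. In liver, resident macrophages called Kupffer cells and the endothelium of the sinusoids clear immune complexes from blood.

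After filtering and removal of doublets, 10009 NAV and 10311 MOCK cells remained, with medians of 2057 and 3767 UMIs (unique molecular counts) per cell. Ptprc, the gene of CD45, had a UMI in 79.9% of NAV and 83.6% of MOCK cells. The libraries shared 5 cell barcodes. Classes were rebuilt from marker genes, with the 5 receptor genes kept out of the clustering, and carry "-like" since they are not the authors' annotation. Before the sort the cells were incubated with an antibody to CD16/CD32, the products of Fcgr3 and Fcgr2b, as a block. Whether this left a trace in the RNA was not tested.

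On GRCm38, Fcgr2b (chromosome 1, 170958617 to 170976547, minus strand), Fcgr4 (171018920 to 171029761, plus strand), Fcgr3 (171051174 to 171064935, minus strand) and Fcer1g (171229572 to 171234365, minus strand) lie within 276 kb. Fcgr1 lies apart on chromosome 3 (96282909 to 96293969, minus strand). Fcgr2b and Fcgr3 are close relatives, and 13.4% of the 31-base words in Fcgr3 transcripts and 4.15% of those in Fcgr2b transcripts occur in another of the 5 genes. In the last 500 bases of the longest transcripts none does. The antisense gene Gm38204 overlaps Fcgr2b and had 2 UMIs in NAV and 3 in MOCK, and whether counting used strand is not given in the sources used here.

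Fcgr1 had its highest level in a cluster led by interferon-induced genes, and Fcgr4 and Fcgr2b were high there too. The promoters of Fcgr1 and Fcgr4 are shown for this reason, and that of Fcgr2b for contrast in motifs, not in level. Each is the RefSeq sequence on GRCm38.p6 from 250 bases before to 50 after the start, 5′ to 3′ on the gene's strand, with motif matches in capitals.
Fcgr1 (chr3:96293920-96294219, - strand): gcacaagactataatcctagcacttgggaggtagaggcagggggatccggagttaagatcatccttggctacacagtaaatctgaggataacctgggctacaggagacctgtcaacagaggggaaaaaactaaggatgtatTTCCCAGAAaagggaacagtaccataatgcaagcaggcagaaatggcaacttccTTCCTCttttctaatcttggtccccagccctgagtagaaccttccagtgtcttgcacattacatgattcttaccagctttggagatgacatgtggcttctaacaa
Fcgr4 (chr1:171018676-171018975, + strand): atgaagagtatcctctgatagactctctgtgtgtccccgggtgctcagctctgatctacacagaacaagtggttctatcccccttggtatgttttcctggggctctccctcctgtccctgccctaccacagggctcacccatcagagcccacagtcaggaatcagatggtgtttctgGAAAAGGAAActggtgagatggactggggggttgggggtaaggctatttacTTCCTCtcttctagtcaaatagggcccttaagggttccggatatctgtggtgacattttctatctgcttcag
Fcgr2b (chr1:170976022-170976321, - strand): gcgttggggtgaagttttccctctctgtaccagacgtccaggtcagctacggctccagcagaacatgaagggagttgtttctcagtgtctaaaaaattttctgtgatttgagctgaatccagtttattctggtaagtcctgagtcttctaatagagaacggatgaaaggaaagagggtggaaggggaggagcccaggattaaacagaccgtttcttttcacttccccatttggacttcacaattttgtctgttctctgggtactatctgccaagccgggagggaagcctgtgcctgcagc
Both strands were searched for TTCNNNGAA (the GAS element bound by STAT dimers), GAAA followed by 2 bases of any kind and GAAA again (like the ISRE bound by interferon regulatory factors) and GAGGAA (a core bound by PU.1). The Fcgr1 window holds a GAS match 109 bases before the start and a GAGGAA match 55 bases before it, and the Fcgr4 window an ISRE-like match 73 bases before the start and a GAGGAA match 22 bases before it. No matches overlap. The 2 listed Fcgr3 starts have a GAGGAA match 6 and 15 bases before them, and in the Fcgr2b and Fcer1g windows none of the 3 motifs matched. The Fcgr2b and Fcgr3 windows lie inside the spans of their genes given above. Starts further upstream in those spans were not searched. Of 32851 mouse promoters of this length 8.30% hold TTCNNNGAA, 3.44% the ISRE-like motif and 28.3% GAGGAA.

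Fcgr1, the high-affinity receptor for monomeric IgG, was highest, among the named classes, in Kupffer-like and macrophage-like cells. Kupffer-like cells had 319.7 UMIs per 1000000 UMIs of the class (CPM) in NAV (286 to 356) and 309 in MOCK (294 to 324), and macrophage-like cells had 301 (289 to 314) in NAV and 259.9 (251 to 269) in MOCK. In classical monocyte-like cells, from which tissue macrophages can arise, the level was 195 CPM in NAV and 190.2 in MOCK. Neutrophil-like cells had 13.4 and 10.6 CPM and T-like cells 2.84 and 10.4 CPM in NAV and MOCK, so the neutrophil and T cell intervals met in MOCK.

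One unnamed cluster of mononuclear phagocytes exceeded all of these in Fcgr1. It was led by Cxcl9, Ccl12 and Ifit3, products of interferon-treated myeloid cells, and held 89 NAV and 108 MOCK cells. Its Fcgr1 level was 476 CPM (413 to 545) in NAV and 744 CPM (674 to 818) in MOCK. Neutrophil-like cells divided in the same way. The cluster led by the interferon-induced genes Slfn4, Ifit3 and Rsad2 had 107 CPM of Fcgr1 (63.6 to 169) in NAV and 173 (79.1 to 328) in MOCK. The 3 large neutrophil-like clusters had 7.61 to 11.3 CPM in NAV and 5.48 to 10.8 CPM in MOCK, with no overlap of intervals with the interferon-led cluster in either library.

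Fcgr4, the activating receptor for IgG2 subclasses, was highest, among the named classes, in Kupffer-like and nonclassical monocyte-like cells, the monocytes that patrol vessels. Kupffer-like cells had 399 CPM in NAV (361 to 439) and 409 in MOCK (391 to 427). Nonclassical monocyte-like cells had 287 CPM in NAV (261 to 313) and 320.0 in MOCK (275 to 370.0). The next levels among named classes were those of macrophage-like cells, 186 CPM in NAV and 173 in MOCK. An unnamed cluster with Kupffer and macrophage markers, led by Vcam1, Cd207 and Vsig4, had 332 CPM in NAV and 297 in MOCK. Among neutrophil-like clusters the one led by Retnlg, S100a8 and S100a9, genes of mature blood neutrophils, had 225 CPM in NAV and 174 in MOCK, beside 93.6 in NAV and 115 in MOCK for the cluster marked by Il23a and 87.8 in NAV and 97.6 in MOCK for that marked by Siglecf. The interferon-led phagocyte cluster had 348 CPM of Fcgr4 in NAV (295 to 408) and 459 in MOCK (404 to 518). Fcgr2b, with no motif match in its promoter window, had 685 CPM in that cluster in NAV and 698 in MOCK. Macrophage-like cells had 776 CPM of Fcgr2b in NAV and 760.2 in MOCK. Whether the motifs bear on the levels in that cluster was not tested. In the interferon-led neutrophil-like cluster Fcgr4 stood above the other 3 in MOCK, with 403 CPM (249.8 to 617), but not in NAV, with 203 CPM (140.3 to 283).

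Fcgr3, the low-affinity activating receptor and a target of the blocking antibody, was measured in macrophages, monocytes and neutrophils alike. In NAV, macrophage-like cells had 454 CPM, Kupffer-like cells 429, classical monocyte-like cells 416 and neutrophil-like cells 391, with each interval meeting the next. In MOCK the same classes had 540.3, 555, 505 and 488 CPM. Nonclassical monocyte-like cells were lower, with 208 CPM in NAV and 332 in MOCK, and so were cDC2-like cells, with 84.8 in NAV and 176 in MOCK. The highest MOCK level was that of peritoneal-type macrophage-like cells, 784 CPM (702 to 872) in 71 cells, a class with 1 cell in NAV. NK-like cells, which carry the receptor as a trigger of antibody-dependent killing, had 33.1 CPM in NAV (16.5 to 59.3) and 55.3 in MOCK (22.2 to 114), from 11 and 7 UMIs. These intervals met those of T-like cells in MOCK and lay just above them in NAV.

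Fcer1g, the chain that carries the activating signal, was also found in classes with few UMIs of the receptors. Nonclassical monocyte-like cells had the highest class level, 2823 CPM in NAV and 2244 in MOCK, followed by macrophage-like cells with 2271 in NAV and 2153 in MOCK. NK-like cells had 1693 CPM in NAV and 1486 in MOCK although Fcgr1 and Fcgr4 had 0 and 0 UMIs there in NAV and 1 and 0 in MOCK. The pDC-like class, plasmacytoid dendritic cells, had 909.6 CPM in NAV and 679 in MOCK, beside 3 UMIs of Fcgr3 in each library. B-like cells had 47.5 CPM in NAV and 64.8 in MOCK.

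**Figure D1:**
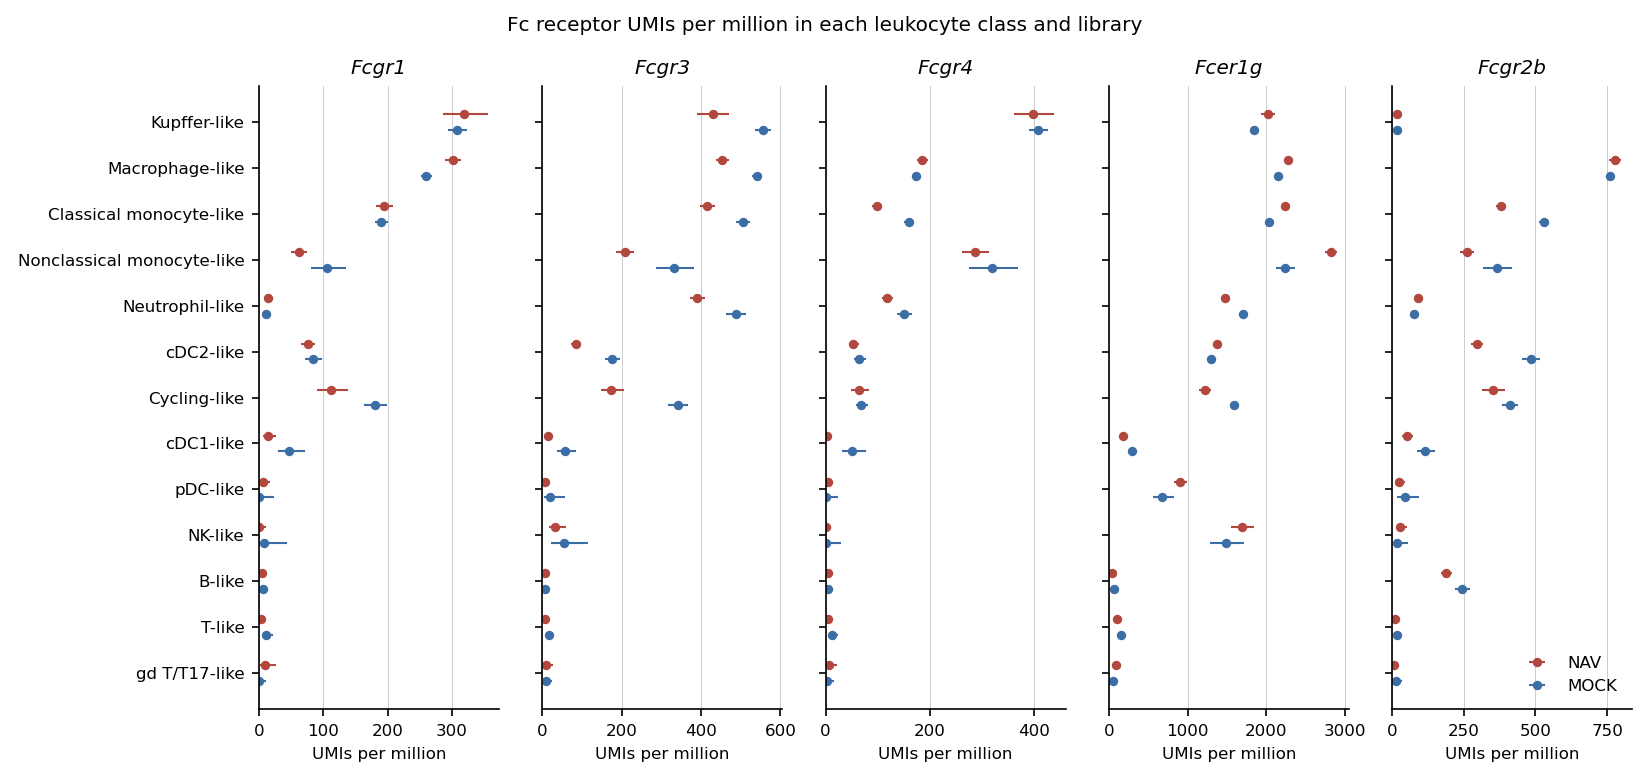
CPM of each gene (x axes, a scale for each gene) by class (rows), with NAV above MOCK in each row and bars for 95% counting intervals. Fcgr2b is near 0 in Kupffer-like cells and high in macrophage-like cells, while Fcgr1 and Fcgr4 are high in Kupffer-like cells; 1 library stands behind each point.

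Among the named classes, Fcgr2b, the inhibitory receptor, separated Kupffer-like from macrophage-like cells. Macrophage-like cells had 776 CPM in NAV (756 to 797) and 760.2 in MOCK (746 to 775). Kupffer-like cells had 18.3 CPM in NAV (11.01 to 28.6) and 17.7 in MOCK (14.2 to 21.8), which met the T-like levels of 9.48 CPM in NAV and 17.9 in MOCK. Under the other filters and clusterings the Kupffer-like level was 23.0 to 73.4 CPM in NAV and 23.7 to 38.1 in MOCK, in every case below the lowest macrophage-like level of 726 CPM in NAV and 615 in MOCK. A cluster with markers of both classes, led by Vcam1, Cd207 and Vsig4 and left unnamed, lay between them with 112 CPM in NAV (91.2 to 135) and 202 in MOCK (187 to 217). A smaller unnamed cluster, led by Clec4f, Cd5l and Cd207, had Kupffer, macrophage and cell cycle markers. It had 69 Fcgr2b UMIs in 31 NAV cells and 137 in 101 MOCK cells, so not all cells with Kupffer markers lacked Fcgr2b.

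Within macrophage-like cells the level followed the clusters. The cluster led by Arg1, Fn1 and Spp1, of which Arg1 encodes arginase, had 1016 CPM of Fcgr2b in NAV (973 to 1059) and 1113 in MOCK (1040 to 1189). This was the highest level among clusters of at least 50 cells in both libraries. The classical monocyte-like level was 379.8 CPM in NAV and 531 in MOCK, and the cDC2-like level, conventional dendritic cells that present antigen to helper T cells, 295 in NAV and 485 in MOCK. B-like cells, in which Fcgr2b is the receptor that restrains antigen receptor signals, had 189 CPM in NAV (169 to 211) and 245 in MOCK (219 to 272).

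The highest Fcgr2b level of all came from a small unnamed cluster. This cluster of 18 NAV and 7 MOCK cells, led by Igfbp7, Sparc and Tspan7, expressed all 12 markers of sinusoidal endothelium, but also hepatocyte and cholangiocyte markers, and stayed unnamed. It had 235 Fcgr2b UMIs in NAV, 2416 CPM (2117 to 2746), and 79 in MOCK, 1149 CPM (910 to 1432). Fcgr1, Fcgr3 and Fcgr4 together had 6 UMIs there in NAV and 9 in MOCK. The activating to inhibitory ratio, the UMIs of Fcgr1, Fcgr3 and Fcgr4 over those of Fcgr2b, was 0.0255 in NAV and 0.114 in MOCK.

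Across named classes the same ratio spanned the range from Kupffer-like to B-like cells. It was 62.7 in NAV (40.0 to 105) and 72.0 in MOCK (58.4 to 89.8) for Kupffer-like cells. For neutrophil-like cells it was 5.78 in NAV (5.17 to 6.47) and 8.29 in MOCK (7.21 to 9.58). Nonclassical monocyte-like cells had 2.13 in NAV and 2.07 in MOCK, classical monocyte-like cells 1.87 and 1.61, and macrophage-like cells 1.21 and 1.28. In cDC2-like cells the inhibitory receptor had more UMIs, with 0.724 in NAV and 0.672 in MOCK, and in B-like cells the ratio was 0.0876 in NAV and 0.0744 in MOCK, from 29 and 25 activating UMIs. No length scale was applied, so the ratio serves to compare classes, not the genes within a class.

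**Figure D2:**
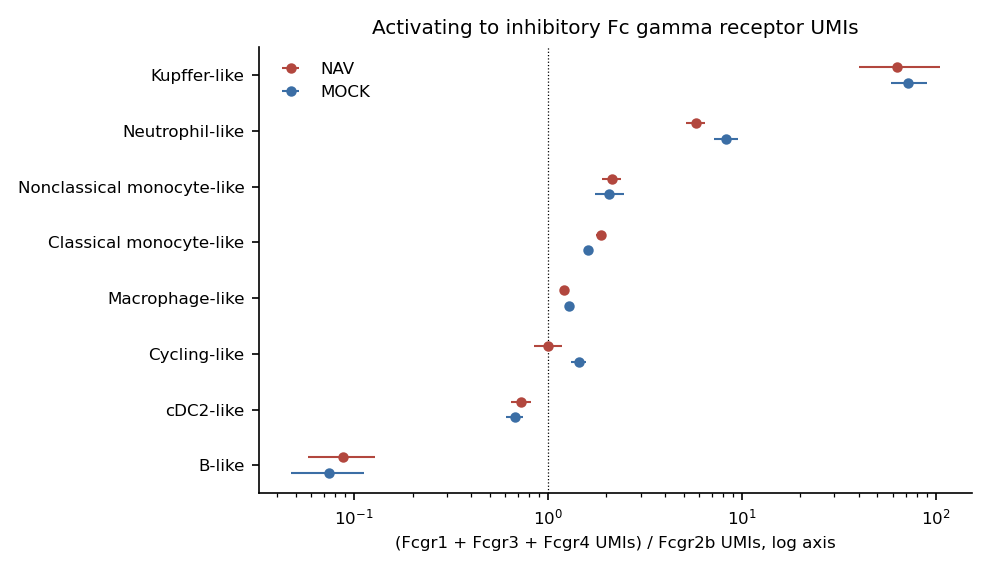
UMIs of Fcgr1, Fcgr3 and Fcgr4 over those of Fcgr2b (x axis, log scale) in 8 classes (rows), with NAV above MOCK and bars for exact 95% intervals. The ratio is 62.7 in NAV and 72.0 in MOCK in Kupffer-like cells and 0.0876 and 0.0744 in B-like cells.

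The classes also differed cell by cell. Every cell was thinned at random to 1300 UMIs, and shallower cells were left out. Among Kupffer-like cells 73.3% in NAV and 75.6% in MOCK had a UMI of an activating receptor but none of Fcgr2b, and 1 of 150 in NAV and 8 of 635 in MOCK had an Fcgr2b UMI at all. Among macrophage-like cells 37.8% in NAV and 40.2% in MOCK had both, and 18.2% and 15.9% had Fcgr2b alone. Among B-like cells 19.9% in NAV and 24.2% in MOCK had Fcgr2b alone and 1.82% and 1.69% an activating receptor alone.

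T-like cells, taken as a class that lacks these receptors, set the background. An Fcgr2b UMI was found in 1.35% of 370 T-like cells in NAV (0.440 to 3.13%) and 1.88% of 213 in MOCK (0.514 to 4.74%), with median depths before thinning of 2119.5 and 2110 UMIs. Kupffer-like cells, with medians of 6634 and 7682.5 UMIs, had 0.667% in NAV (0.0169 to 3.66%) and 1.26% in MOCK (0.545 to 2.47%), and so did not stand above this background after thinning. Without thinning the Kupffer-like shares were 7.89% in NAV and 8.28% in MOCK. Neutrophil-like cells had 9.67% in NAV (8.05 to 11.5%) and 6.99% in MOCK (5.49 to 8.74%) at medians of 1167 and 1287 UMIs, but 2107 of 3307 NAV and 1052 of 2054 MOCK cells were too shallow and left out. At 800 UMIs, which kept 2970 NAV and 1943 MOCK neutrophil-like cells, the shares were 5.99% and 5.30%.

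**Figure D3:**
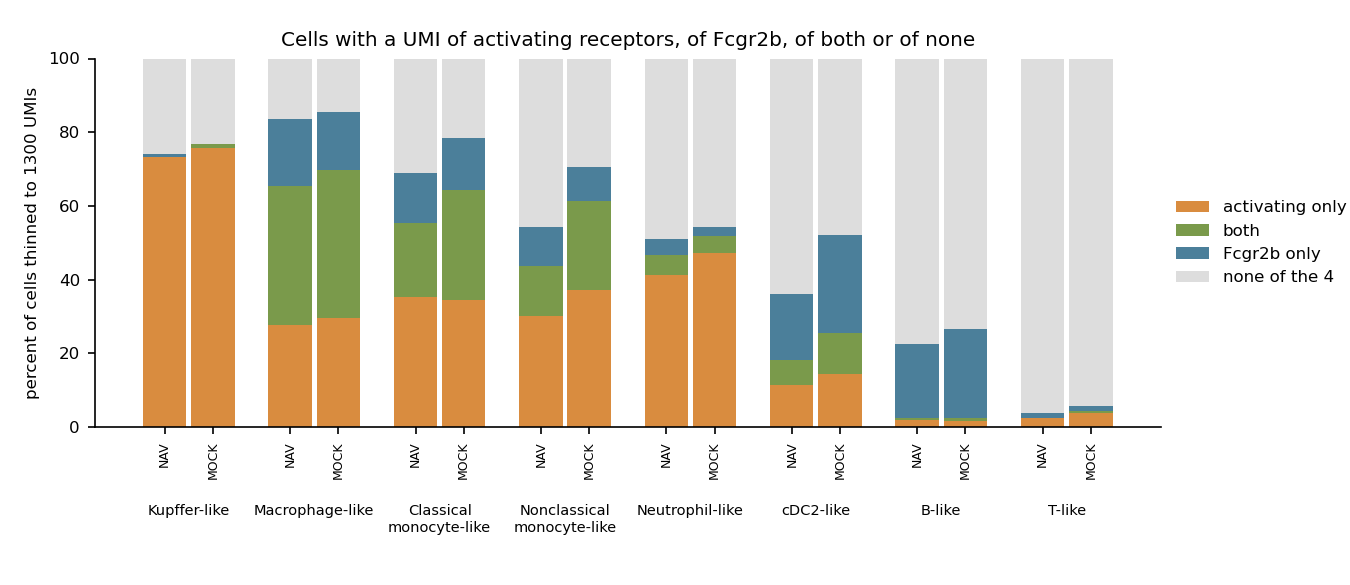
Percent of cells (y axis), after thinning to 1300 UMIs, with a UMI of an activating receptor only, of both kinds, of Fcgr2b only or of none of the 4 receptor genes, in 8 classes, NAV left of MOCK. Kupffer-like bars hold almost no Fcgr2b; in B-like bars 77.5% of NAV and 73.5% of MOCK cells had none of the 4, and most of the rest Fcgr2b only.

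The NAV and MOCK libraries were next set side by side within classes of at least 100 cells in each, for genes with at least 20 UMIs over both. Of 50 gene and class pairs 41 had that many, and the other 9 were lymphoid pairs near background. A log2 NAV/MOCK ratio of -0.5 or less was found in 9 of the 41 pairs, against 16% of all gene and class pairs, and a ratio of 0.5 or more in 1, against 12.7%. The lower pairs were Fcgr2b and Fcgr3 in cDC2-like cells, Fcgr1 and Fcgr3 in nonclassical monocyte-like and in cycling-like cells, Fcgr4 in classical monocyte-like cells, and Fcgr2b and Fcer1g in T-like cells. The cycling-like class is 1 cluster named by cell cycle genes, and it also passed 93% of macrophage and 80% of cDC2 markers. Whether its mix of cell types differed between the libraries was not tested. Both T-like ratios turned sign under other settings, with Fcgr2b reaching 0.55 and Fcer1g 0.89. The higher pair was Fcer1g in gd T/T17-like cells, with 30 NAV and 20 MOCK UMIs and an interval that held 0. The median over the 41 pairs was -0.22, against 0.01 over all 86428 pairs. The cDC1-like class, with 103 NAV and 75 MOCK cells, fell under the minimum of cells and is not counted. Its ratios were -1.83 for Fcgr1, -1.14 for Fcgr2b, -1.97 for Fcgr3, -3.96 for Fcgr4 and -0.64 for Fcer1g, with intervals below 0. The receptor UMIs there were 8, 32, 9 and 2 in NAV and 21, 52, 26 and 23 in MOCK. Other classes under the minimum had ratios of both signs, such as 0.42 for Fcer1g in pDC-like cells.

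By class, the members past the threshold were set beside all genes of that class. Lower were 2 of 5 members in cDC2-like cells (14.1% of genes), 2 of 5 in nonclassical monocyte-like cells (15.9%), 2 of 5 in cycling-like cells (22%), 1 of 5 in classical monocyte-like cells (15.2%) and 2 of 2 in T-like cells (16.5%). Of 5 members 0 were lower in Kupffer-like (18%), macrophage-like (14.6%) and neutrophil-like cells (11.6%), as were 0 of the 3 measured in B-like cells (16.2%). In gd T/T17-like cells Fcer1g alone was measured and was higher (14.8% of genes were higher there and 17.5% lower). In the other classes none was higher, against 6.25% of genes in B-like, 5.65% in classical monocyte-like, 10.7% in cycling-like, T-like and cDC2-like, 9.53% in Kupffer-like, 7.7% in macrophage-like, 39.2% in neutrophil-like and 13.9% in nonclassical monocyte-like cells.

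Fcgr3 was the gene most often lower in NAV. Its ratio was below 0 in 7 of 8 classes, with each of those 7 intervals below 0, and above 0 in B-like cells, from 14 NAV and 9 MOCK UMIs. The ratio was -1.05 (-1.31 to -0.80) in cDC2-like cells, with 84.8 CPM in NAV and 176 in MOCK. It was -0.97 in cycling-like cells, -0.68 in nonclassical monocyte-like cells, -0.37 in Kupffer-like cells, -0.32 in neutrophil-like cells, -0.28 in classical monocyte-like cells and -0.25 in macrophage-like cells. Its median over 8 classes was -0.34, and 10.3% of 6629 genes measured in these classes had one as low or lower. Of those genes 13.6% were lower in NAV in at least 7 of the 8 classes. Within classical monocyte-like cells the Fcgr3 ratio was -0.37 in 1 cluster and -0.02 and 0.06 in the other 2. What part of the Fcgr3 difference belongs to the library as a whole was not tested.

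Fcgr2b differed by class. It was lower in NAV in cDC2-like cells, with 295 CPM in NAV, 485 in MOCK and a log2 ratio of -0.72 (-0.86 to -0.57). In classical and nonclassical monocyte-like cells both ratios were -0.48, with 379.8 and 261 CPM in NAV and 531 and 366 in MOCK. It was -0.37 (-0.59 to -0.15) in B-like and -0.22 (-0.42 to -0.03) in cycling-like cells. The Fcgr2b ratio was below 0 in 6 of 9 classes, with 5 intervals below 0. Its median over the 8 classes used for Fcgr3 was -0.30, and 11.7% of 6629 genes had one as low or lower. In macrophage-like cells the ratio was 0.03 (-0.02 to 0.08), in Kupffer-like cells 0.05 (-0.75 to 0.78) and in neutrophil-like cells 0.21 (-0.04 to 0.45). Under other settings it ran from -0.07 to 0.32 in macrophage-like cells and from -0.28 to 0.95 in Kupffer-like cells. In neutrophil-like cells it ran from -1.25 to 0.31. The macrophage-like value depended on the mix of clusters. Of the 5 large clusters 4 had a ratio below 0, of -0.02 to -0.15, and 1, led by Gpnmb, 0.19, and with clusters at equal weights the class ratio was -0.074. The Arg1-led cluster, highest in Fcgr2b, held 462 NAV and 166 MOCK cells. All 3 classical monocyte-like clusters had an Fcgr2b ratio below 0, of -0.34, -0.58 and -0.65.

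Fcgr4 and Fcgr1 had ratios past the threshold in monocytes and cycling cells. Fcgr4 in classical monocyte-like cells had 98.1 CPM in NAV (89.2 to 108) and 160.5 CPM in MOCK (151 to 170.4), a ratio of -0.71 (-0.87 to -0.55). Its ratios in the 3 clusters of that class were -0.44, -0.87 and -1.13. In Kupffer-like cells Fcgr4 had a ratio of -0.04 and in macrophage-like cells one of 0.10. Fcgr1 had 61.8 CPM in NAV and 106 in MOCK in nonclassical monocyte-like cells, a ratio of -0.77 (-1.25 to -0.29), and one of 0.21 (0.14 to 0.29) in macrophage-like cells.

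The Fcer1g ratio was above 0 in 6 of 10 classes. In nonclassical monocyte-like cells, where Fcgr1 and Fcgr3 were lower in NAV, its ratio was 0.33 (0.24 to 0.42). It was 0.13 in classical monocyte-like and in Kupffer-like cells and 0.08 in macrophage-like cells. In neutrophil-like cells the Fcer1g ratio was -0.21 (-0.26 to -0.15). Within its 3 large clusters the ratio was -0.13, -0.09 and -0.01, and with clusters at equal weights the class ratio was -0.083. In that class the median of all genes was 0.34, and the summed level of 12 neutrophil markers was 20876 CPM in NAV and 48302 in MOCK. Relative to that median the neutrophil-like ratios were -0.66 for Fcgr3, -0.70 for Fcgr4, -0.55 for Fcer1g, -0.14 for Fcgr2b and -0.01 for Fcgr1, so the sign of the Fcgr1 and Fcgr2b ratios turned with the scaling.

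**Figure D4:**
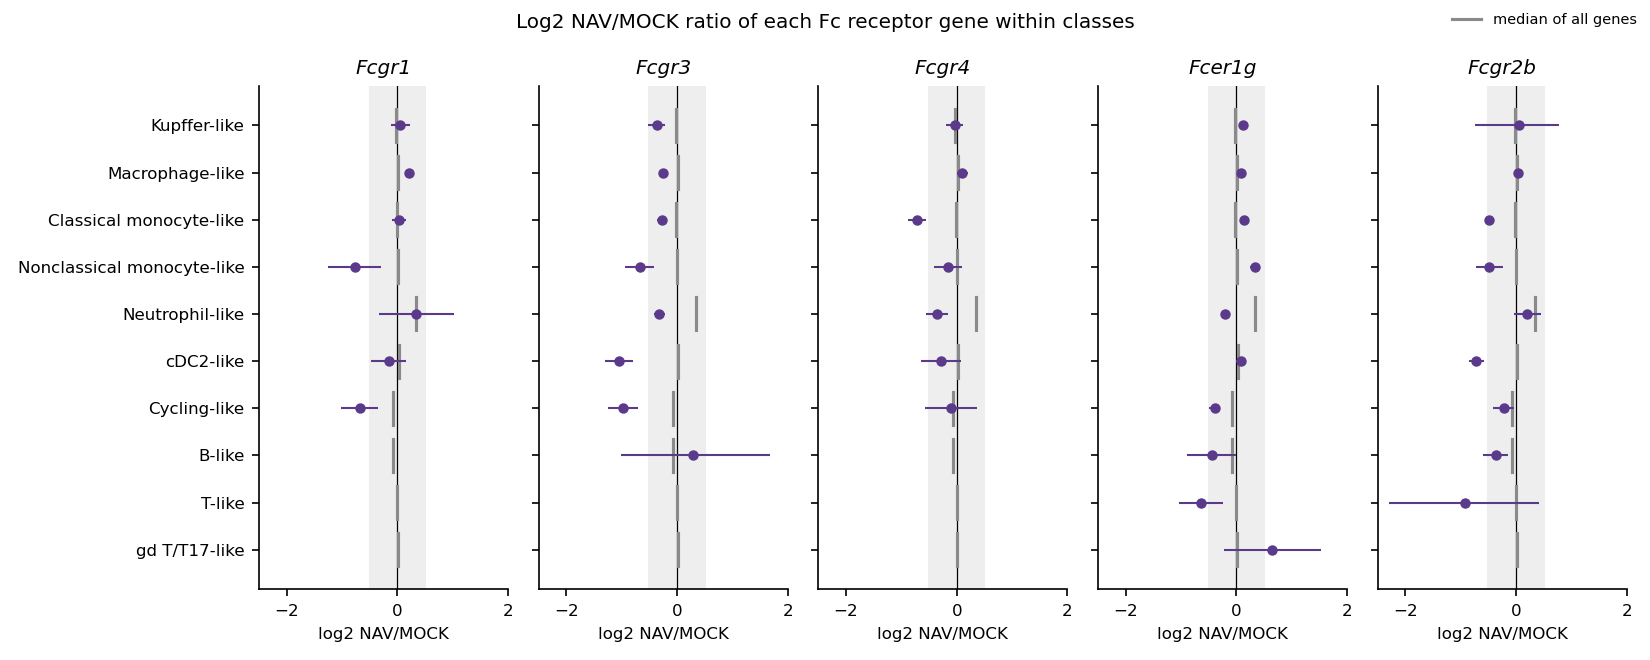
Log2 NAV/MOCK ratio (x axes) of each gene in the 10 largest classes (rows), with 95% counting intervals; grey strokes mark the median of all genes of the class and the grey band a ratio under 0.5 in size. Fcgr3 lies left of 0 in 7 of its 8 classes, and the medians lie near 0 except in neutrophil-like cells.

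Between the libraries the activating to inhibitory ratio differed by less than the threshold in 6 of the 8 classes plotted above. Its log2 NAV/MOCK ratio was -0.08 in macrophage-like cells, 0.04 in nonclassical monocyte-like cells, 0.11 in cDC2-like cells and 0.21 in classical monocyte-like cells. In cycling-like cells it was -0.53 (-0.80 to -0.26) and in neutrophil-like cells -0.52 (-0.78 to -0.26). Within neutrophil-like cells the clusters went apart. The Retnlg-led cluster had 14.8 in NAV and 8.93 in MOCK, the Il23a-marked cluster 3.89 in NAV and 6.36 in MOCK, and the Siglecf-marked cluster 5.75 in NAV and 9.85 in MOCK. NAV held 510, 1157 and 1485 cells of these clusters and MOCK 1086, 527 and 388. With each library clustered on its own the class value for neutrophil-like cells was 0.56. That MOCK class had 151 CPM of Fcgr1 and 239 CPM of Fcgr2b, against 10.6 and 78.4 CPM with both libraries together, and log2 ratios of -3.56 for Fcgr1 and -1.25 for Fcgr2b.

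The whole libraries were compared next. All NAV cells together had 152 CPM of Fcgr1, 354 of Fcgr2b, 301 of Fcgr3, 133 of Fcgr4 and 1698 of Fcer1g. All MOCK cells together had 207 CPM of Fcgr1, 435 of Fcgr2b, 461 of Fcgr3, 188 of Fcgr4 and 1806 of Fcer1g. The log2 ratios were -0.44, -0.30, -0.62, -0.50 and -0.09. With the 17 classes, unnamed cells among them, held at the same shares of UMIs in both libraries, the ratios became 0.02 for Fcgr1, -0.11 for Fcgr2b, -0.38 for Fcgr3, -0.17 for Fcgr4 and 0.04 for Fcer1g. Holding clusters gave 0.07, -0.20, -0.31, -0.07 and 0.08. Kupffer-like cells, 152 in NAV and 640 in MOCK, contributed 10.6% of all Fcgr4 UMIs in NAV and 25.5% in MOCK. Neutrophil-like cells, 3307 in NAV and 2054 in MOCK, contributed 18.1% of Fcgr3 UMIs in NAV and 6.93% in MOCK.

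**Figure D5:**
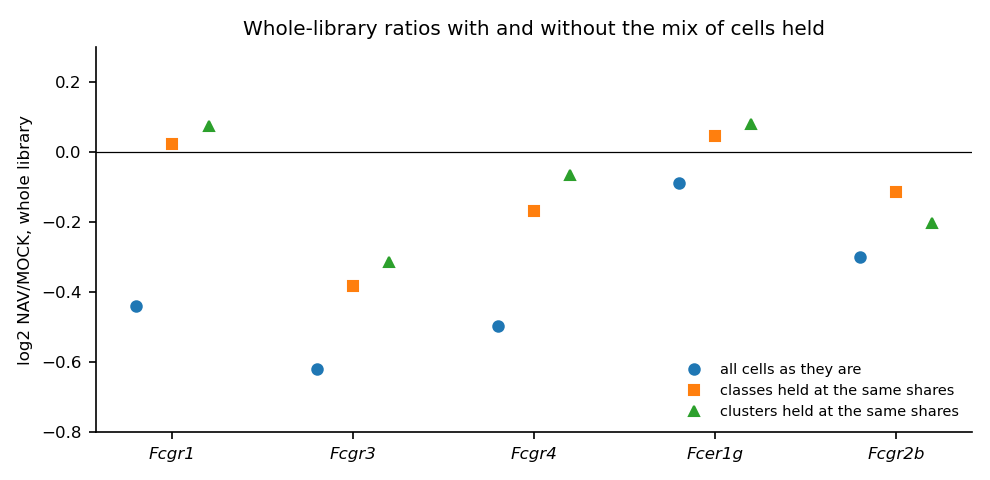
Log2 NAV/MOCK ratio over all cells (y axis) of each gene (x axis), as measured and with classes or clusters held at the same shares of UMIs. Fcgr1 moves to 0.02 with classes held while Fcgr3 stays at -0.38.

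Other receptors that signal through the gamma chain were read in the 6 classes of at least 200 cells in each library. In macrophage-like cells 0 of 10 measured were lower in NAV and 3 were higher past the threshold, with a median of 0.39, against 14.6% lower, 7.7% higher and a median of 0.02 for all genes. The higher ones were Pira2, an activating paired immunoglobulin-like receptor (1.06), Clec4d, a C-type lectin that binds mycobacterial lipid (0.82), and Lilra6 (0.63). In classical monocyte-like cells 1 of 10 was lower and 1 higher, with a median of -0.16. In neutrophil-like cells 3 of 8 were lower and 1 higher, with a median of -0.32, against 0.34 for all genes, of which 11.6% were lower and 39.2% higher. Pira2 was -0.96 and Lilra6 -1.16 there, and Clec4n, which encodes the fungal receptor dectin-2, was 0.92.

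The signalling genes were read in the same way. Of genes that act behind the ITAM, 3 of 25 were lower and 1 higher in macrophage-like cells and 3 of 24 were lower and 1 higher in classical monocyte-like cells, against 14.6% lower and 7.7% higher for all genes of the macrophages and 15.2% lower and 5.65% higher for those of the monocytes. Vav1, an exchange factor for Rac, was the lowest, with 46.1 CPM in NAV and 209.7 in MOCK in macrophage-like cells (-2.19). Its ratio was -2.03 in classical monocyte-like, -1.35 in neutrophil-like, -1.83 in B-like, -1.38 in T-like and -2.16 in cDC2-like cells. In neutrophil-like cells 2 of 24 were lower and 2 higher, against 11.6% and 39.2% of all genes. The list of ITAM adaptors also holds Hcst, which encodes DAP10, an adaptor without an ITAM. Of this list 0 of 5 passed the threshold in macrophage-like cells and 1 of 3 was lower in classical monocyte-like cells. In neutrophil-like cells 1 was lower and 1 higher of 4, against the same shares of all genes in each class. The lower gene was Hcst in both, at -0.77 in classical monocyte-like and -0.75 in neutrophil-like cells. Tyrobp, the ITAM adaptor DAP12, had ratios of -0.06 in macrophage-like, 0.08 in classical monocyte-like and -0.16 in neutrophil-like cells. The ITIM list holds receptors that carry ITIMs as well as the enzymes and adaptors behind them. Of its genes, 3 of 15 were lower and 1 higher in macrophage-like cells. In classical monocyte-like cells 5 of 14 were lower and 0 higher, and in neutrophil-like cells 4 of 12 were lower and 0 higher. The shares of all genes lower were 14.6%, 15.2% and 11.6% and those higher 7.7%, 5.65% and 39.2%. The list medians were -0.06, -0.30 and -0.10, against 0.02, -0.02 and 0.34 for all genes. Pirb, an inhibitory receptor with ITIMs, was lower in all 3, at -1.36, -1.73 and -2.27. The lower genes in classical monocyte-like cells were the receptors Pirb, Siglece, Cd72 and Lair1 and the adaptor Dok1. Inpp5d, which encodes SHIP1, was -0.13 in macrophage-like, -0.06 in classical monocyte-like and 0.25 in neutrophil-like cells.

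Genes of phagocytosis and the oxidative burst showed 3 of 14 lower and 1 higher in macrophage-like cells, 4 lower and 1 higher in classical monocyte-like cells and 5 lower and 1 higher in neutrophil-like cells. All genes had 14.6% lower and 7.7% higher, 15.2% and 5.65%, and 11.6% and 39.2% in these classes. Ncf1, a cytosolic subunit of the phagocyte oxidase, was -1.33 in macrophage-like, -1.17 in classical monocyte-like and -0.93 in neutrophil-like cells. Arpc1b, a subunit of the actin-branching Arp2/3 complex, was -1.02, -0.91 and -1.20. Neither difference was confined to these classes. In B-like, T-like and cDC2-like cells Ncf1 was -0.88, -1.50 and -1.24, and Arpc1b was -0.71, -1.01 and -0.87. Itgb2, the beta chain of complement receptor 3, was 0.59 in macrophage-like cells. Of the other Fc receptors, Fcgrt, which encodes the neonatal receptor that recycles IgG, was lowest, with 10.1 CPM in NAV and 45.0 in MOCK in macrophage-like cells (-2.16) and 17.6 and 66.1 CPM in cDC2-like cells (-1.91). Of this list 1 of 5 was lower in macrophage-like cells, 2 of 4 in classical monocyte-like cells, 2 of 3 in cDC2-like cells and 0 of 3 in neutrophil-like cells, against 14.6%, 15.2%, 14.1% and 11.6% of all genes. Higher were 0, 0, 1 and 0 in these classes, against 7.7%, 5.65%, 10.7% and 39.2% of all genes. In cDC2-like cells the other lower gene, Fcrla, had 9 NAV and 16 MOCK UMIs and an interval that held 0. In B-like, T-like and cDC2-like cells the medians of all lists but the IgG chains lay between -1.11 and 0.44. In cDC2-like cells 6 of 15 genes of the ITIM list were lower and 2 higher, against 14.1% and 10.7% of all genes. In T-like cells 3 of 4 other receptors of the gamma chain were lower and 0 higher, and 6 of 14 phagocytosis genes were lower and 1 higher, against 16.5% and 10.7% of all genes. Some of these rest on few UMIs in NAV and MOCK: Clec4e on 26 and 27, Cd300lf on 10 and 10 and Itgam on 9 and 14, with intervals that held 0. Ncr1, one of the markers used to name NK cells, rests on 6 and 16 UMIs, with a ratio of -2.07 (-3.71 to -0.64). Others did not rest on few UMIs, such as Arpc1b, with 229 and 293 UMIs and an interval below 0. Whether the scarce ones stem from RNA of other cells was not tested.

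Cells with transcripts of the IgG heavy chain Ighg2b, part of the ligand, were few. All cells together held 3690 Ighg2b UMIs in NAV and 13 in MOCK, from 43 and 7 cells. Ighg2b had 2108 UMIs in B-like cells of NAV and 2 of MOCK, but 1937 of the NAV UMIs came from 1 cell, and 10 of 1170 NAV and 1 of 1020 MOCK B-like cells had any. In neutrophil-like cells the NAV library had 27 Ighg2b UMIs and the MOCK library 0.

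The genes whose levels over 27 class and library pairs were most like each receptor were found by Pearson's r of log2(CPM + 1) among 6971 genes. The pairs share libraries and depths, so r is a description. Among the genes most like Fcgr1 were Csf1r (0.95), the growth factor receptor of macrophages, and Ms4a6d (0.94). Fcgr4 was most like Ccl6, Tgm2 and Pla2g7 (0.95, 0.95 and 0.94), Fcgr3 most like Pgd, Mtus1 and Tgm2 (all 0.94) and Fcer1g most like Tyrobp (0.95), Itgam (0.90) and Mef2a (0.88). Fcgr2b had the lowest likeness to any gene, with Pdpn (0.88), F13a1 (0.85) and Fn1 (0.84), and its r with the other 4 members was 0.45 to 0.60, against 0.64 to 0.86 among those 4.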

How the data were processed

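Each library was deposited as a table of raw UMI counts, genes by barcodes. The submitters' processing notes list mm10, fastp, STARsolo 2.7.10a and Cell Ranger, per the labels, with no roles. The 5 genes and all lists were chosen with earlier results of these data known. A barcode needed 500 UMIs and 200 genes, with mitochondrial UMIs below 20% (10441 NAV and 10770 MOCK). Scrublet's automatic threshold marked 0.00958% of NAV and 0.0186% of MOCK barcodes and did not work. A score above 0.25 removed 174 NAV and 176 MOCK barcodes, and high-scoring clusters (median over 0.1) another 258 and 283. Cells were clustered in scanpy 1.11.5 (2000 variable genes without the 5 receptors, 30 components, 15 neighbours, Leiden resolution 1), and the mononuclear phagocytes, the T, NK and innate lymphoid cells, and all cells outside these and the neutrophil-like, B-like and cycling-like classes were clustered again.

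A class name needed 3 markers at a log2 fold of at least 1 over the median cluster in 10% of cells, and a marker among the top 10 genes or 60% of the markers. A cluster stayed unnamed if a class of another lineage also reached 60% of its markers, or if classes were nearly tied. Clusters with no qualifying class stayed unnamed as well (582 NAV and 1137 MOCK cells in all). These rules, the doublet thresholds, the 100-cell minimum and the motifs were set after the data were seen. A difference from the study may come from these names. Levels are UMIs of a gene per 1000000 UMIs of its class (CPM) with exact Poisson intervals, log2 ratios have exact conditional intervals, ratios of receptors exact binomial and conditional ones, and shares Clopper-Pearson ones, all at 95%. Counts are of captured molecules, and all intervals cover counting error only. The ratio intervals were tested on simulated data. By rule the text may name the 5 receptors, the 3 genes most like each (class and library pairs of at least 50 cells, genes reaching 50 CPM), and, of each list, up to 4 members with the largest ratios of either sign and at least 50 UMIs in macrophage-like, neutrophil-like or monocyte-like cells. Ighg2b, Inpp5d and the list genes named in B-like, T-like and cDC2-like cells were chosen after their values were seen. A gene among those most like Fcgr1 is not reported here. Lists were not read in Kupffer-like and nonclassical monocyte-like cells, which fell under 200 cells in 1 library. Of 31253 gene identifiers 31107 were in GENCODE vM21.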

Additional observations from a re-analysis of the deposited data

Results flagged for a closer look

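The activating to inhibitory ratio went in opposite directions in clusters of 1 class. In the neutrophil-like cluster led by Retnlg the log2 NAV/MOCK ratio of that measure was 0.73 (0.15 to 1.35), in the cluster marked by Il23a it was -0.71 (-1.21 to -0.22) and in that marked by Siglecf -0.78 (-1.39 to -0.19). The differences were 1.44 and 1.51 on the log2 scale. They were not tested, since each library is 1 pool. The Retnlg-led cluster rests on 34 Fcgr2b UMIs in NAV and 122 in MOCK, and the Siglecf-marked cluster on 154 and 33.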

How the results depend on the processing

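The count of receptor and class pairs lower in NAV past the threshold was 9 and lay between 7 and 12 under all 9 alternatives. That of higher pairs was 1, and was 3 with libraries clustered separately, 2 with the receptors among the variable genes and 3 after subtracting the median of the other classes. Of the 41 pairs, 38 could be compared under the stricter filter, 36 with doublets kept, 35 at resolution 2 and 31 with separate clustering. These counts therefore do not all rest on the same pairs, and the share of all genes under each alternative is not given here. The log2 NAV/MOCK ratio of activating to inhibitory UMIs in macrophage-like cells, -0.08, was -0.21 under the stricter filter, -0.27 with doublets kept, -0.22 at resolution 2, -0.44 with separate clustering and 0.057 with clusters at equal weights. In neutrophil-like cells, -0.52, it was -0.030 with doublets kept and 0.56 with separate clustering. In classical monocyte-like cells it stayed between 0.16 and 0.27. T-like values turned sign: Fcgr2b was 0.55 with the receptors among the variable genes, 0.54 at equal weight per cell and 0.079 with clusters at equal weights, and Fcer1g was 0.047, 0.084, 0.89 and 0.26 under the stricter filter, with doublets kept, with separate clustering and with the receptors among the variable genes. The causes were not tested. Fcgr3 in cDC2-like cells stayed between -1.11 and -0.97, and Fcgr4 in classical monocyte-like cells between -0.89 and -0.50. Holding classes or clusters over whole libraries was chosen after seeing the data. No paired analysis was possible because each group is 1 library, and no replicate could be left out. Depth limits lymphoid classes most, where counts of 20 UMIs and fewer decide a ratio.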
